A study of Mus musculus with 2 samples.

Results

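The genes described here take up fructose or start its breakdown in the liver: the transporters Slc2a2, Slc2a5, Slc2a8 and Slc2a9, the ketohexokinase gene Khk, and the polyol pathway genes Akr1b3 and Sord. These 7 genes were chosen by name, with earlier results of these arrays known. They were read on the arrays from 8 probes matched by transcript accession, out of 20660 genes named on the arrays. All 7 were among the 13881 genes well above background on both arrays, so no member was lost to the filter on dim probes.

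Liver RNA came from CREBH-Tg mice, which overexpress the active form of human CREBH from a cDNA mainly in the liver, and from wild-type (WT) mice, both on the C57B6J background. Mice of both genotypes ate the HFHS diet, which is rich in sucrose, for 12 weeks, so no group on another diet was compared. RNA was pooled within each genotype and each pool was hybridised to 1 one-colour Agilent array. The promoter of the transgene, the age and sex of the mice and the number of mice per pool are not given in the sources used here. The mouse Creb3l3 probe, with a log2 ratio of -0.0053 for CREBH-Tg over WT, does not check the labels, because the transgene is human cDNA.

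Sucrose is split in the gut into glucose and fructose, and the liver clears most of the fructose that reaches it in the portal blood. Fructose crosses membranes through facilitative transporters of the SLC2A (GLUT) family. Ketohexokinase then phosphorylates it to fructose-1-phosphate, which is then split into trioses, so fructose enters metabolism past the phosphofructokinase step that limits glycolysis. Cells can also make fructose from glucose by the polyol pathway, in which aldose reductase forms sorbitol and sorbitol dehydrogenase oxidises it to fructose. ChREBP, encoded by Mlxipl, is a sugar-responsive transcription factor that acts on many of these genes in liver.

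The transcripts of fructose uptake and breakdown differed little between CREBH-Tg and WT liver. Of the 7 genes, 0 were 2-fold apart, where 1.33% of all 13881 genes were (0.663% higher and 0.67% lower in CREBH-Tg), and 0 were 1.5-fold apart, where 4.55% of all genes were. Their log2 ratios of CREBH-Tg over WT ran from -0.24 for Khk to 0.14 for Akr1b3, with 4 above 0 and 3 below. The median of the 7 was 0.023, beside 0.026 over all genes. The SD over the 7 log2 ratios was 0.13, beside 0.29 over all genes. These are not like for like: the all-gene SD and shares include the dimmest genes, which are measured more noisily. The probes that stand for the 7 were all brighter than that. Under a stricter filter on dim probes, 0.44% of genes were 2-fold apart. With 1 array per genotype there is no replicate check, so no test against biological variation could be made. In whole liver, fewer cells of a type and less RNA per cell cannot be told apart.

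Measurement error was read in 2 ways. The first is spot noise, the scatter of the log2 ratio among copies of the same probe, taken from probes present in 5 or more spots. Its SD was 0.085 in the middle of 3 classes of genes by signal, from 97 such probes, and 0.048 in the brightest class, from 87 probes. The 95% range that follows was 0.17 for middle-class genes and 0.095 for the brightest genes. The second is the error that the scanner software deposited with each spot, which was at most 10.3% of the signal for the 8 member probes. Carried into a log2 ratio, it gives a 95% range of 0.40 for the probe that stands for each of the 7 genes. Both leave out differences between animals, pools, labelling reactions and hybridisations. Past the spot-noise range lay 1 member that was lower, Khk, where 13.3% of all genes were lower by that rule, and 1 that was higher, Slc2a8, where 20.8% were. Together these are 28.6% of the members, beside 34.0% of all genes, so the share is near the background. Past the range of the deposited errors lay 0 of 7 members, beside 7.84% of all genes.

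**Figure D1:**
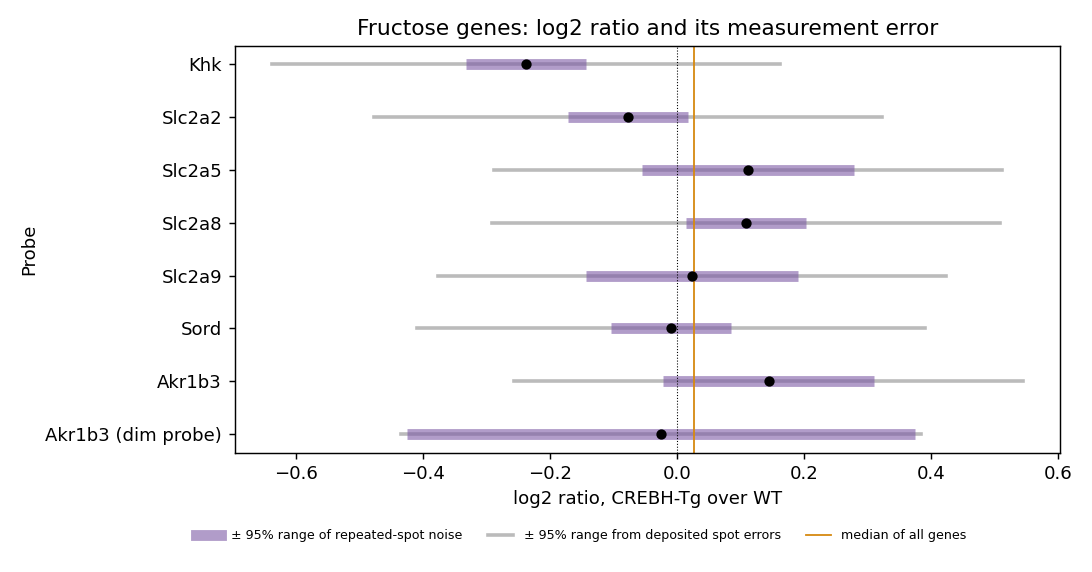
Log2 ratio of CREBH-Tg over WT (horizontal axis) for each of the 8 member probes (vertical axis), with the 95% range of spot noise as a thick bar and that of the deposited spot errors as a thin bar. The thick bars of Khk, at -0.24, and Slc2a8, at 0.11, leave out 0, all 8 thin bars cross it, and the orange line is the median of all genes, 0.026.

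Ketohexokinase stood lowest of the members. The processed intensity of Khk was 69484 in CREBH-Tg and 88286 in WT, on arrays whose 75th percentiles of intensity were 309 in CREBH-Tg and 333 in WT. In units of that percentile its signal was 225 in CREBH-Tg and 265 in WT, a log2 ratio of -0.24, or 1.18-fold lower in CREBH-Tg. The pool labelled CREBH-Tg was thus the lower by more than the spot-noise range of 0.095 and by less than the 0.40 of the deposited errors. Over all genes, 11.4% had a lower log2 ratio than Khk and 24.2% lay farther from 0 in either direction. Among genes of the brightest class, 4.78% had a lower log2 ratio. RefSeq lists 5 Khk transcripts, which include the liver form ketohexokinase C and the widely expressed form A. The single Khk probe carries the accession of 1 of them, and no probe sequence was read here, so the forms were not measured apart.

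A difference between 2 members' log2 ratios does not depend on the factor that scales the arrays. Khk lay below each of the other 6 members by 0.16 to 0.38 on the log2 scale. All 6 differences were past their spot-noise range, and 0 of 6 were past the range of the deposited errors. The smallest, Khk minus Slc2a2, was -0.16 with a spot-noise range of 0.13, and the largest, Khk minus Akr1b3, was -0.38 with a range of 0.19. Khk was singled out for this comparison after its values were seen. Because Khk was the lowest member, all 6 differences had to be below 0. All 6 also share the same Khk reading, so they are not 6 independent results. Only 4.78% of genes of the brightest class had a lower log2 ratio than Khk, so most genes of that class also lay above it. The share of all genes that differ from Khk by more than the spot-noise range was not computed.

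The promoter windows of Khk and Slc2a8, the members past the spot-noise range, and of Slc2a2, the main hepatic GLUT, are shown because the groups differ in a transcription factor. They are RefSeq sequences of GRCm38.p6, given in the direction of the gene, and 6 of the 7 members matched the promoter table. Capitals mark matches, on either strand, to any of the letters searched, which are named next.
Khk, upstream of the annotated gene, chr5:30921309-30921435, plus strand: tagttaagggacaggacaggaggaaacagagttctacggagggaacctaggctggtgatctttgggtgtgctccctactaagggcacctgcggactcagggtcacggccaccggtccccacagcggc
Khk, around the E-box, chr5:30921476-30921505, plus strand: agcgttccccgtCACGTGacaccGTTAATc
Slc2a8, chr2:32982084-32982333, minus strand: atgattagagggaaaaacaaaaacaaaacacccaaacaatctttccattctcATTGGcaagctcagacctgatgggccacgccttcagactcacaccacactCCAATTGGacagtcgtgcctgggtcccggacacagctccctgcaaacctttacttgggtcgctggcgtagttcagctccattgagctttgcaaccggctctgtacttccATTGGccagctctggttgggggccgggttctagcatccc
Slc2a2, chr3:28697653-28697902, plus strand: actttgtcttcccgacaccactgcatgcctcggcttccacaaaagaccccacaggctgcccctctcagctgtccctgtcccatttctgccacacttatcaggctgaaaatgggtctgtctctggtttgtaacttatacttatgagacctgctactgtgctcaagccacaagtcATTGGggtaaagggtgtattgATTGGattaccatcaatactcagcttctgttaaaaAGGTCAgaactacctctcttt

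The letters searched on both strands were CACGTG (the E-box of carbohydrate response elements), TGACGT (the core of the cyclic AMP response element), CCAAT (the CCAAT box), TATAAA (the TATA box), GTTAAT (part of the HNF1 site) and AGGTCA (part of many nuclear receptor sites). CACGTG was found in the 300-base window of Khk alone among the 6 members, at position -71 from the start site used by the table, which lies inside the annotated gene, and 7.15% of all 32851 promoter windows hold it. GTTAAT followed it at position -60 and is held by 7.10% of all windows. TGACGT was in 0 of 6 members' windows, where 7.51% of all windows hold it, and TATAAA in 0 of 6, where 13.6% do. CCAAT was in the windows of Slc2a2 and Slc2a8, where 37.4% of all windows hold it. In Slc2a8 2 of its matches overlap in the run CCAATTGG. AGGTCA was in the windows of Slc2a2 and Slc2a9, where 16.3% of all windows hold it. The Slc2a9 window lies wholly inside the annotated gene, so its matches are not upstream of the annotated gene. These are matches of letters in short windows, not measured sites.

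Slc2a2 encodes GLUT2, the main transporter of glucose and fructose across the hepatocyte's sinusoidal membrane. Its processed intensity was 10763 in CREBH-Tg and 12236 in WT, and its log2 signals relative to the 75th percentile were 5.12 in CREBH-Tg and 5.20 in WT. The log2 ratio was -0.077, within the spot-noise range of 0.095. Set against the median of all genes it was -0.10, just past that range. Of all genes, 66.5% lay farther from 0.

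Slc2a5 encodes GLUT5, a transporter selective for fructose that is best known from the small intestine. Its processed intensity was 1192 in CREBH-Tg and 1189 in WT, and its log2 signals were 1.95 in CREBH-Tg and 1.84 in WT. The log2 ratio of 0.11 lay within the spot-noise range of 0.17. The probe's median spot signal was 23.5 times the local background in CREBH-Tg and 28.5 times in WT, so the transcript was measured in both pools. Of 6 markers of small intestine, from which GLUT5 RNA could also come, 3 were not well above background in CREBH-Tg and 4 in WT. Lct, Alpi and Cdh17 were at background on both arrays, and Vil1 was detected in CREBH-Tg alone. The 2 markers measured on both arrays went opposite ways, Fabp2 with a log2 ratio of 0.32 and the dim Sis with -0.81. The summed signal of the 6, in units of the 75th percentile, was 155 in CREBH-Tg and 124 in WT, nearly all of it Fabp2, and its part in the Slc2a5 signal was not tested.

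Slc2a8 encodes GLUT8, an intracellular transporter reported to carry glucose and fructose in mouse liver. Its processed intensity was 4350 in CREBH-Tg and 4348 in WT, and its log2 signals were 3.82 in CREBH-Tg and 3.71 in WT. The log2 ratio was 0.11, past the spot-noise range of 0.095. Set against the median of all genes, it was 0.083, within that range, so its place past the noise rests on the scaling. In the brightest class 35.8% of genes were higher by more than the spot-noise range, and 15.5% lower.

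Slc2a9 encodes GLUT9, which carries urate in liver and kidney and has been described as a hexose transporter as well. Its processed intensity was 1064 in CREBH-Tg and 1128 in WT, with log2 signals of 1.78 in CREBH-Tg and 1.76 in WT. The log2 ratio of 0.023 was next to the median of all genes, and 89.8% of genes lay farther from 0. RefSeq lists 13 Slc2a9 transcripts and the probe carries the accession of 1.

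The polyol pathway genes lay within spot noise under 75th percentile scaling, and each passed it under another scaling. Sord had a log2 ratio of -0.11 under quantile normalization and -0.10 under loess, past its range of 0.095, and Akr1b3 had 0.23 under median scaling, past its range of 0.17. Sord, sorbitol dehydrogenase, makes fructose from sorbitol. Its processed intensity was 64244 in CREBH-Tg and 69709 in WT, and after scaling its signal was 208 times the 75th percentile in CREBH-Tg and 210 times in WT. The log2 ratio was -0.010, with 95.4% of all genes farther from 0. Under 75th percentile scaling Sord was the nearest of the members to equal, whereas set against the median of all genes Slc2a9 was nearer, at -0.0027, beside -0.036 for Sord.

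Akr1b3, aldose reductase, forms sorbitol from glucose and was the 1 member with 2 probes. On the brighter probe the processed intensity was 830 in CREBH-Tg and 809 in WT, with log2 signals of 1.43 in CREBH-Tg and 1.28 in WT. The log2 ratio there was 0.14, within the spot-noise range of 0.17. On the dimmer probe the intensity was 160 in CREBH-Tg and 175 in WT, and the log2 ratio was -0.025. The probes differed by 0.17, beside a median range of 0.13 over the 3376 genes with more than 1 measured probe, so the direction for Akr1b3 depends on the probe. RefSeq also lists Gm6644, a transcribed Akr1b3 pseudogene, which has 0 probes of its own among those named here. Reads of the 2 transcripts by the Akr1b3 probes were not told apart.

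**Figure D2:**
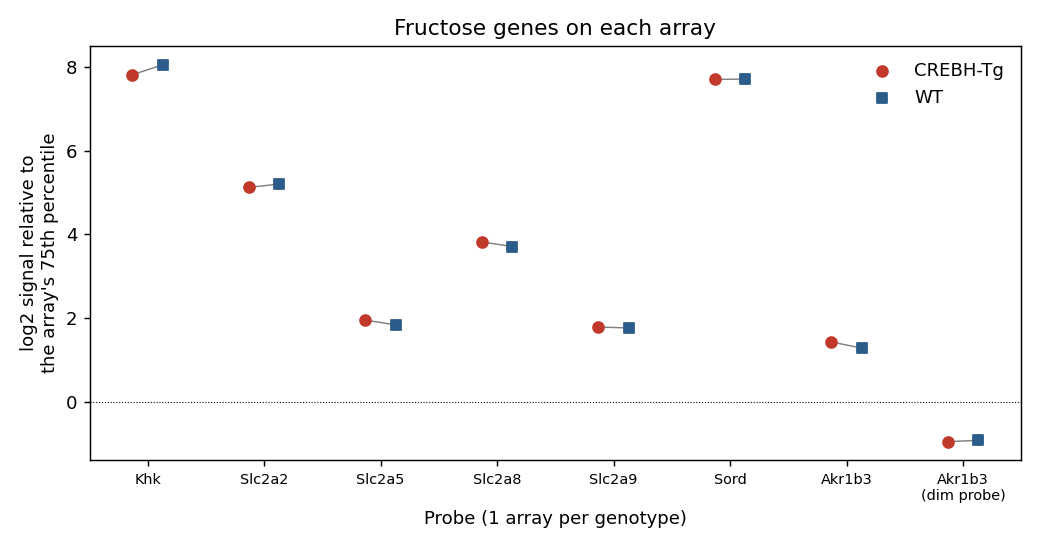
Log2 signal relative to each array's 75th percentile (vertical axis) for the 8 member probes (horizontal axis), with CREBH-Tg as circles and WT as squares, 1 array each. The pairs nearly coincide, with the widest gap in Khk, at 7.81 in CREBH-Tg and 8.05 in WT; heights of different probes are not comparable.

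The steps after ketohexokinase went both ways. Of 7 genes that handle the trioses, 3 lay above 0 and 4 below, with a median log2 ratio of -0.0077. Tkfc, the triokinase that phosphorylates glyceraldehyde, had an intensity of 7554 in CREBH-Tg and 9720 in WT. Its log2 ratio was -0.26, lower by more than the spot-noise range of 0.095, as were 15.5% of genes of the brightest class. It was within the 0.40 of the deposited errors. Khk and Tkfc were thus lower in CREBH-Tg by nearly the same amount, with a difference of 0.018 between their log2 ratios. Adh5 of the same list also lay within spot noise of Khk, with a difference of -0.080 for Khk minus Adh5 and a range of 0.19.

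Tpi1, triosephosphate isomerase, and Gpd1, which makes glycerol 3-phosphate, had log2 ratios of 0.14 and 0.13, both past the spot-noise range. Both are in the brightest class, where 35.8% of genes were higher by that rule. A second Tpi1 probe gave 0.037. Glyctk, glycerate kinase, had a log2 ratio of -0.0077 on its brighter probe and -0.39 on its dimmer one, so its value depends on the probe. Aldh2, a mitochondrial aldehyde dehydrogenase, had -0.084 and Adh5, a class III alcohol dehydrogenase, -0.16, both within spot noise.

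Hexokinases phosphorylate glucose and other hexoses. Over the 6 measured genes of the hexokinase list the median log2 ratio was -0.14, with 4 of 6 below 0, where 44.0% of all genes were, and Hk2 was highest at 0.065. Hkdc1, of the same list, was not well above background in CREBH-Tg. Its intensities were 15.5 in CREBH-Tg and 23.3 in WT, near the floor of the arrays. The CREBH-Tg reading was 1.39-fold lower than WT, a log2 ratio of -0.48. That is past the 0.40 of spot noise among the dimmest genes but within the probe's 95% range of 0.88 from the deposited errors.

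Of 15 genes of the ChREBP list, 11 lay below 0, or 73.3%, where 44.0% of all genes did. Past the spot-noise range, 7 were lower, where 13.3% of all genes were, and 3 were higher, where 20.8% were. The list's median log2 ratio was -0.26. Mlxipl itself had an intensity of 13225 in CREBH-Tg and 17634 in WT, a log2 ratio of -0.31, and its second probe gave -0.30. Rgs16, a regulator of G protein signalling, was the highest at 0.28. The lowest was Mlxip, which encodes the ChREBP relative MondoA, at -1.35. That value came from 1 dim probe, and its other probe gave -0.059. This list was chosen with earlier results of these arrays known, so its direction is not independent evidence.

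Other sugar transporters were mostly dim. Of 12 named genes, 8 were measured on both arrays, with a median log2 ratio of -0.25. Of these 8, 7 lay below 0, where 44.0% of all genes did. Past the spot-noise range, 2 were lower, where 13.3% of all genes were, and 0 were higher, where 20.8% were. Slc5a2, the kidney glucose transporter SGLT2, was 2.53-fold lower in CREBH-Tg (log2 ratio -1.34), at intensities of 18.7 in CREBH-Tg and 51.0 in WT, near the floor of the arrays. Of the 8, Slc2a6 was highest at 0.33, within the range of 0.40 for its dim class. Slc2a3, the high-affinity glucose transporter GLUT3, was well above background in CREBH-Tg alone. Its intensities were 35.8 in CREBH-Tg and 13.1 in WT, also near the floor. Its CREBH-Tg signal was 2.03-fold the dimmest detected signal of the WT array, a bound of 1.02 on the log2 scale. That bound is past the 0.40 of spot noise in the dim class. The probe's own log2 ratio, 1.56, was past its 95% range of 1.21 from the deposited errors. The bound was below that range, and the WT reading behind the ratio was not well above background.

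**Figure D3:**
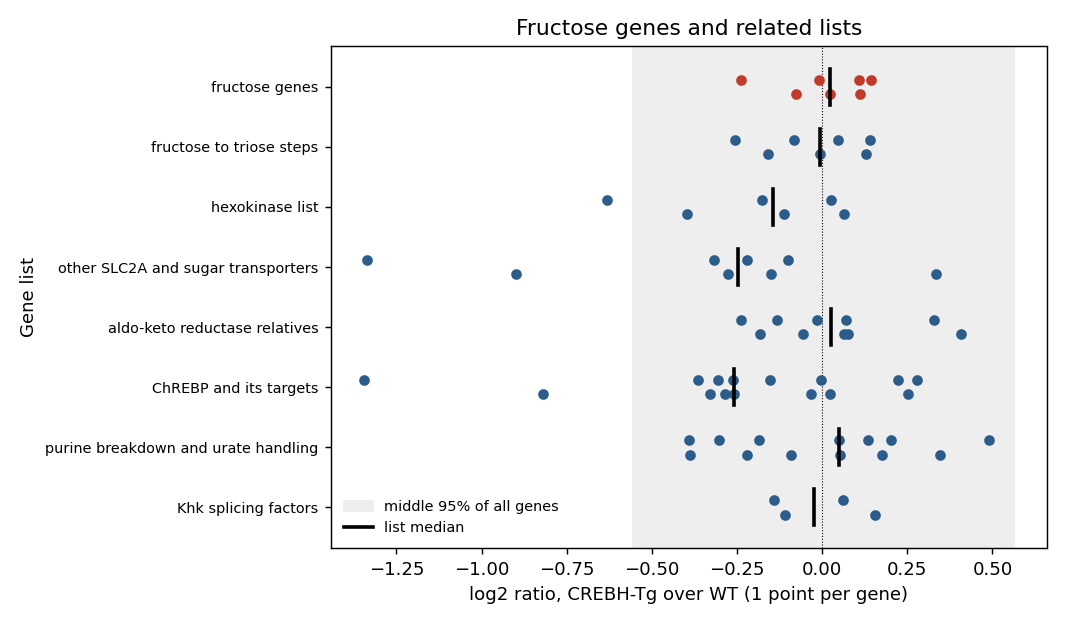
Log2 ratio of CREBH-Tg over WT (horizontal axis) for each measured gene of the fructose genes and of 7 related lists (vertical axis), with the list median as a black bar and the middle 95% of all genes, -0.55 to 0.56, shaded. The 7 fructose genes lie inside the shaded band, and the ChREBP list has its median at -0.26.

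Relatives of aldose reductase and genes of urate handling, which stand next to Akr1b3 and Slc2a9, went both ways. Of 10 aldo-keto reductase genes, 5 were above 0 and 5 below, with a median of 0.025, from -0.24 for Akr1d1, a bile acid enzyme, to 0.41 for the dim Akr1b7. These genes are similar in sequence and their probes can cross-hybridise. Of 13 measured genes of purine breakdown and urate handling, 5 were higher past the spot-noise range, where 20.8% of all genes were. Another 5 were lower past it, where 13.3% of all genes were. Both shares of the list are above those of all genes, but most of its measured genes were in the brightest class. In that class 35.8% of genes were higher by that rule and 15.5% lower. Some second probes did not repeat the call: Ampd2 had -0.19 and 0.21, Nt5c2 0.20 and 0.0050, and Urah 0.14 and 0.061. The list's median was 0.050. Slc17a1, a phosphate and urate transporter, was highest at 0.49, and Abcg2, a urate exporter, lowest at -0.39. The 4 factors known from other work to act on Khk splicing ran from -0.14 for Hnrnph1 to 0.16 for Hnrnph2.

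Hepatocyte markers were nearly equal in the pools, with all 8 well above background, a median log2 ratio of 0.064 and summed signals of 4395 times the 75th percentile in CREBH-Tg and 4180 times in WT. Medians were -0.071 for macrophage, 0.045 for endothelial, 0.13 for stellate, 0.13 for lymphocyte and -0.34 for bile duct markers. Adipocyte markers had a median of 1.55 over the 3 measured on both arrays, Adipoq at 2.20, Retn at 1.55 and Fabp4 at 0.17. Adipoq and Retn were dim and Fabp4 was not. The lymphocyte marker Cd3d, also dim, was 2.14-fold higher in CREBH-Tg. Kidney proximal tubule markers had a median of -0.039 and exocrine pancreas had 1 measured marker, at 0.028. Their part in the members' values was not tested.

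Khk was the lowest of the 7 under all 10 processing settings, but most of these could not change that order. Median scaling, the 75th percentile over detected probes and the authors' value table shift all members alike. The other filters and the averaging of probes left the Khk value unchanged. Only quantile normalization, loess and normexp could reorder the members with 1 probe. Scaling by the array median moved all ratios up together, by 0.090. Quantile normalization and loess moved the members unequally: under quantile normalization Khk had -0.34 and Sord -0.11, while Slc2a9 had 0.0025. Against spot noise, Slc2a2 passed its range under quantile normalization, at -0.15, and loess, at -0.14. It also did so with the authors' value table, at -0.14, and the 75th percentile over detected probes, at -0.11. Slc2a5 passed its range under median scaling, at 0.20. Slc2a8 was within its range under loess, at 0.062, and quantile normalization, at 0.066. The same held for Slc2a8 with the value table, at 0.049, and the 75th percentile over detected probes, at 0.080. Set against the median of all genes, a shift common to all ratios drops out, so such settings could not change a gene's side. By that reference Khk was lower under all 10 settings, by 0.22 to 0.35 on the log2 scale. So was Slc2a2, by 0.064 to 0.16. Slc2a5, Slc2a8 and Akr1b3 were higher under all 10, and Slc2a9 and Sord changed sides in 1 of the 10, with no filter on dim probes. Without that reference, the log2 ratio of Slc2a2 was 0.013 when arrays were scaled by their median, the 1 setting in which it was above 0.

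**Figure D4:**
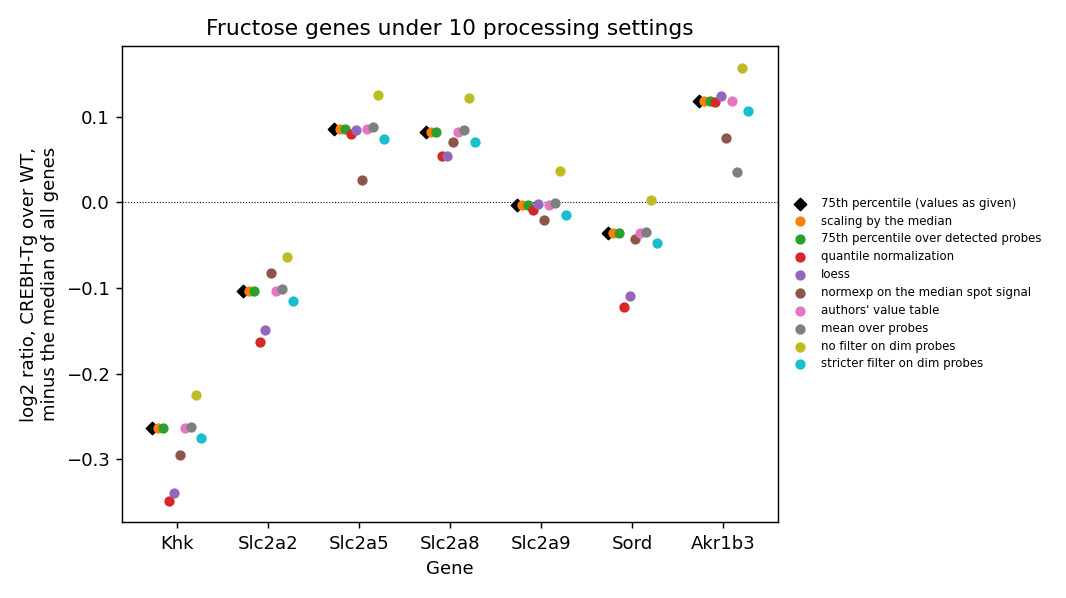
Log2 ratio of CREBH-Tg over WT minus the median of all genes (vertical axis) for the 7 genes (horizontal axis), with 1 point for each of 10 processing settings. Khk lies lowest under each setting, down to -0.35 with quantile normalization. Only quantile normalization, loess and normexp could reorder the members with 1 probe.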

How the data were processed

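Total liver RNA of 1 pool per genotype was hybridised to 1 Cy3 array each, per the labels. Per the file headers, the scans were quantified by Agilent Feature Extraction 10.10.1.1, with an mm9 annotation. Per the file headers, the deposited signals are linear intensity values from which background was already subtracted, with no scaling across arrays. The authors' value table also holds intensity: each value is the processed signal multiplied by a constant, 2.68 for CREBH-Tg and 2.59 for WT, with medians of 81.0 and 89.8. How the constants were set is not stated by the labels.

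Signals were divided by each array's 75th percentile over non-control spots and put on the log2 scale. Of 59305 such spots, 300 outliers were left out. None was saturated, and the share well above background was 58.3% for CREBH-Tg and 55.4% for WT. Copies of a probe were averaged, and detection required more than 50% of the copies to be well above background. Each gene was read from the brightest of its probes that were detected on both arrays. Probes were named through transcript accessions in a RefSeq table of GRCm38.p6, which named 27233 of 55677 probes.

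With 1 array a group, no statistical test was made, and the number of arrays limits the precision. The members and lists were chosen with earlier results of these data known. The genes named are all members, all genes of the triose list, the highest and lowest of each other list with any gene 2-fold apart, and markers 2-fold apart. Some genes that this rule names are not reported here. Mlxipl and the other markers were named after their values were seen. The gene summary was tested on simulated data. Alternatives were 4 other scalings, normexp with an offset of 50 on the median spot signal, the value table, other filters and probe rules, and 1.5-fold and 3-fold thresholds. The deposited spot error was an error measure added after the files were read. The software was R 4.3.3 with limma 3.58.1, and Python 3.11.15 with pandas 2.3.3, numpy 2.4.6, matplotlib 3.10.9 and statsmodels 0.14.6.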

Additional observations from a re-analysis of the deposited data

How the results depend on the processing

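The count of members 2-fold apart was 0 under all 10 settings and at 1.5-fold and 3-fold. Under 75th percentile scaling, the count past the error range was 2 with spot noise and 0 with the deposited spot errors, a wider range by construction. Which members passed spot noise changed with the scaling. Under median scaling they were Khk at -0.15, Slc2a5 at 0.20, Slc2a8 at 0.20 and Akr1b3 at 0.23. Under quantile normalization they were Khk at -0.34, Slc2a2 at -0.15 and Sord at -0.11. The members' median log2 ratio ran from -0.037 with the authors' value table to 0.11 with median scaling. Khk had -0.34 with quantile normalization and -0.15 with median scaling. Sord had -0.11 with quantile normalization. The median of the hexokinase list was -0.51 with the stricter filter, which keeps fewer genes, and that of the purine list was -0.13 with no filter. Of all genes, 92 were 2-fold higher and 93 lower, and 42 and 16 under normexp, whose offset shrinks dim genes by construction. Under median scaling they were 115 and 77, and with no filter 605 and 782. With the stricter filter they were 25 and 8. No paired analysis was possible because each genotype has 1 array. For the same reason no replicate could be left out. The dimmer Akr1b3 probe, 3.36 times its local background in CREBH-Tg and 4.04 times in WT, is the member probe most limited by signal.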
